A study of Mus musculus with 22 samples.

Results

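The 4 Fc gamma receptor genes of the mouse, Fcgr1, Fcgr2b, Fcgr3 and Fcgr4, and Fcer1g were followed in bone marrow-derived macrophages. Fcer1g encodes the signalling chain that the activating receptors share. The cells were given bacterial lipopolysaccharide (LPS), interleukin-10 (IL-10), both or neither. The members were taken by gene symbol from both deposited tables and joined by Ensembl identifier, which gave 5 genes of the 38293 in each table. All 5 passed the filter on low values, among 12338 genes tested at 3 h and 12817 at 6 h and 12 h. Of the receptors, Fcgr1, Fcgr3 and Fcgr4 are activating and Fcgr2b is inhibitory.

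Every macrophage came from Il10-/- C57BL/6 mice aged 6 to 12 weeks, so the treated and untreated cells alike lacked their own Il10 and the IL-10 was recombinant protein added from outside. Marrow cells were grown for 7 to 8 days with 10% serum and 30% medium from L929 cells, a usual source of the macrophage growth factor M-CSF. The groups were LPS with IL-10, LPS, IL-10 alone and control at 3 h in the first table, and LPS with IL-10, LPS and IL-10 alone at 6 h and 12 h with a single control group in the second. LPS and IL-10 were each used at 100 ng per ml, and each of the 11 groups held 2 libraries. The labels do not give the harvest time of the second control, so changes against it at 6 h and 12 h cannot be told apart from time in culture. The labels also do not say whether the libraries of a group came from separate cultures or animals, so the p-values below measure only the spread between these libraries.

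Fc gamma receptors bind the constant region of IgG and let a macrophage take up or respond to antibody-coated particles. The activating receptors Fcgr1 (high affinity), Fcgr3 and Fcgr4 signal through the Fcer1g chain, whose ITAM motif is phosphorylated by Src family kinases and then recruits Syk. Fcgr2b carries an inhibitory ITIM motif in its own tail, which recruits the lipid phosphatase SHIP-1 (encoded by Inpp5d) and dampens ITAM signals, so the mix of receptors sets the response to immune complexes. In mouse macrophages interferons and inflammatory signals are known to raise the activating receptors, and in human monocytes IL-10 is known to raise the inhibitory receptor.

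All members but Fcgr1 lie on chromosome 1 (GRCm38), with Fcgr2b (ENSMUSG00000026656) at 170958617 to 170976547 on the minus strand, Fcgr4 (ENSMUSG00000059089) at 171018920 to 171029761 on the plus strand, Fcgr3 (ENSMUSG00000059498) at 171051174 to 171064935 on the minus strand and Fcer1g (ENSMUSG00000058715) at 171229572 to 171234365 on the minus strand. Fcgr1 (ENSMUSG00000015947) lies on chromosome 3 at 96282909 to 96293969 on the minus strand. Fcgr3 and Fcgr2b are near-identical in part. Of the 1733 stretches of 50 bases in the exons of Fcgr3, 166 (9.58%) also occur in Fcgr2b, so reads from those stretches could be placed on either gene. Fcgr2b has an antisense partner, Gm38204, over part of its length, and nothing in the labels tells whether strand was used in counting.

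The stretch of 250 bases before the RefSeq start of 4 of the members is shown because these genes rose together in part and because the known control of the family runs through promoter elements. Bases in capitals match a motif.
Fcgr1, chr3:96293970-96294219, minus strand: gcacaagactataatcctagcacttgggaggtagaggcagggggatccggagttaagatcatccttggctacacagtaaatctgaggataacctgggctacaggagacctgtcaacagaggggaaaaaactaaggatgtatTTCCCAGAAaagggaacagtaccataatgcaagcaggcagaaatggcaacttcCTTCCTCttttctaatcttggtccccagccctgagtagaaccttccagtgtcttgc
Fcgr4, chr1:171018676-171018925, plus strand: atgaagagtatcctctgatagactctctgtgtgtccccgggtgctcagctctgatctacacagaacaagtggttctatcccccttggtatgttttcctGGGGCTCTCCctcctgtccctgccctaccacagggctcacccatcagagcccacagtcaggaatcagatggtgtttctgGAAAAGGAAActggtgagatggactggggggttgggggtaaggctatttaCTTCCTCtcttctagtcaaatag
Fcgr3, chr1:171059404-171059653, minus strand: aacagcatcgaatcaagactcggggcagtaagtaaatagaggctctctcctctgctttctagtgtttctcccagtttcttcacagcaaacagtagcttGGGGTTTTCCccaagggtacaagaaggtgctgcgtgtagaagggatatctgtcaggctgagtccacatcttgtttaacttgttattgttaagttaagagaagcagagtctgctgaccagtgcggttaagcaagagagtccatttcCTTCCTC
Fcgr2b, chr1:170976072-170976321, minus strand: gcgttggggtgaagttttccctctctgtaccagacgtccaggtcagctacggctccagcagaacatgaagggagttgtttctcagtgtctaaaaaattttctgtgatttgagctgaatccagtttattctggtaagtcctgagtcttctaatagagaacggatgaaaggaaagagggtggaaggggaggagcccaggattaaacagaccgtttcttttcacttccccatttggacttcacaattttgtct

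These sequences come from RefSeq (GRCm38.p6), in which all 5 members were matched. The RefSeq starts of Fcgr3 and Fcgr2b lie within the longer spans that GENCODE gives these genes, so the stretch shown for each lies inside its gene span. Those of Fcgr4 and Fcer1g lie just inside theirs. RefSeq lists another start for Fcgr3 a few bases on. Both strands of the window from 250 bases before to 50 bases after the start were searched for the gamma-activated site TTCNNNGAA, the PU.1 core GAGGAAG, the interferon-stimulated response element core (GAAA, any 2 bases, GAAA) and the kappa-B site. The gamma-activated site, a STAT element, stood in the Fcgr1 window as TTCCCAGAA, and 8.30% of the 32851 mouse windows hold that motif. The PU.1 core, read on the other strand as CTTCCTC, stood in the windows of Fcgr1, Fcgr3 and Fcgr4, against 13.6% of all windows. The Fcgr4 window also held the interferon element core as GAAAAGGAAA, found in 3.44% of windows, and a kappa-B match, GGGGCTCTCC. Another kappa-B match, GGGGTTTTCC, stood in the Fcgr3 window, and 8.46% of all windows hold such a match. No motif of the 4 matched in the windows of Fcgr2b and Fcer1g, which says only that these letters are not in those windows.

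Depth was 9337222 to 21455291 reads per library at 3 h and 15162195 to 31772075 in the second table. The deposited values are read counts divided by a size factor per library and are called normalized reads here. LPS libraries held more normalized reads in all than the controls, 1.504 times at 3 h, 2.20 times at 6 h and 1.68 times at 12 h, against 1.02, 0.956 and 0.967 times with IL-10 alone, so levels against the control depend on the scaling. For all 5 members the 12 h LPS libraries were unequal, the first being the closer to the control, and it is named where a result rests on it. The 10 macrophage markers, which include Fcgr1 itself, summed to 358158 to 502642 normalized reads per library at 3 h and 334143 to 628082 in the second table. Summed B cell markers were at 14.8 to 102, T cell markers at 24.6 to 80.5, NK cell markers at 0 to 16.8, neutrophil markers at 31.1 to 123 and mast cell and basophil markers at 0 to 9.08. Erythroid markers were at 0 in every library and stromal markers at 0 to 2.92. Several of these sums differed between groups without overlap, and their part in the results was not tested. B cell markers were at 31.0 to 43.2 with LPS at 3 h, against 54.0 to 54.97 in the first control, and at 19.6 to 30.4 at 6 h and 26.6 to 32.5 at 12 h, against 58.9 to 78.7 in the second. With LPS and IL-10 they were at 14.8 to 19.2 at 6 h and 55.6 to 60.3 at 12 h. T cell markers were at 75.5 to 80.5 with IL-10 alone at 12 h, against 49.6 to 50.2 in the control, and neutrophil markers at 84.4 to 85.2 with LPS at 3 h and 49.4 to 51.8 at 12 h, against 42.0 to 65.0 and 93.7 to 123 in the controls. Macrophage markers at 3 h were at 480860 to 494527 with LPS, 496649 to 502642 with LPS and IL-10 and 389231 to 391905 with IL-10 alone, against 358158 to 386484 in the first control. At 6 h they were at 586655 to 628082 with LPS and 391618 to 424516 with LPS and IL-10, against 372730 to 445171 in the second control. With IL-10 alone at 12 h they were at 350833 to 356255, below that control. The 4 dendritic cell markers moved with LPS through Xcr1. They summed to 286 to 325 normalized reads with LPS at 3 h, 181 to 193 at 6 h and 86.7 to 138 at 12 h, against 44.1 to 63.3 in the first control and 18.7 to 27.9 in the second. With LPS and IL-10 they summed to 198 to 204, 84.1 to 102 and 87.6 to 112 at the 3 times.

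**Figure D1:**
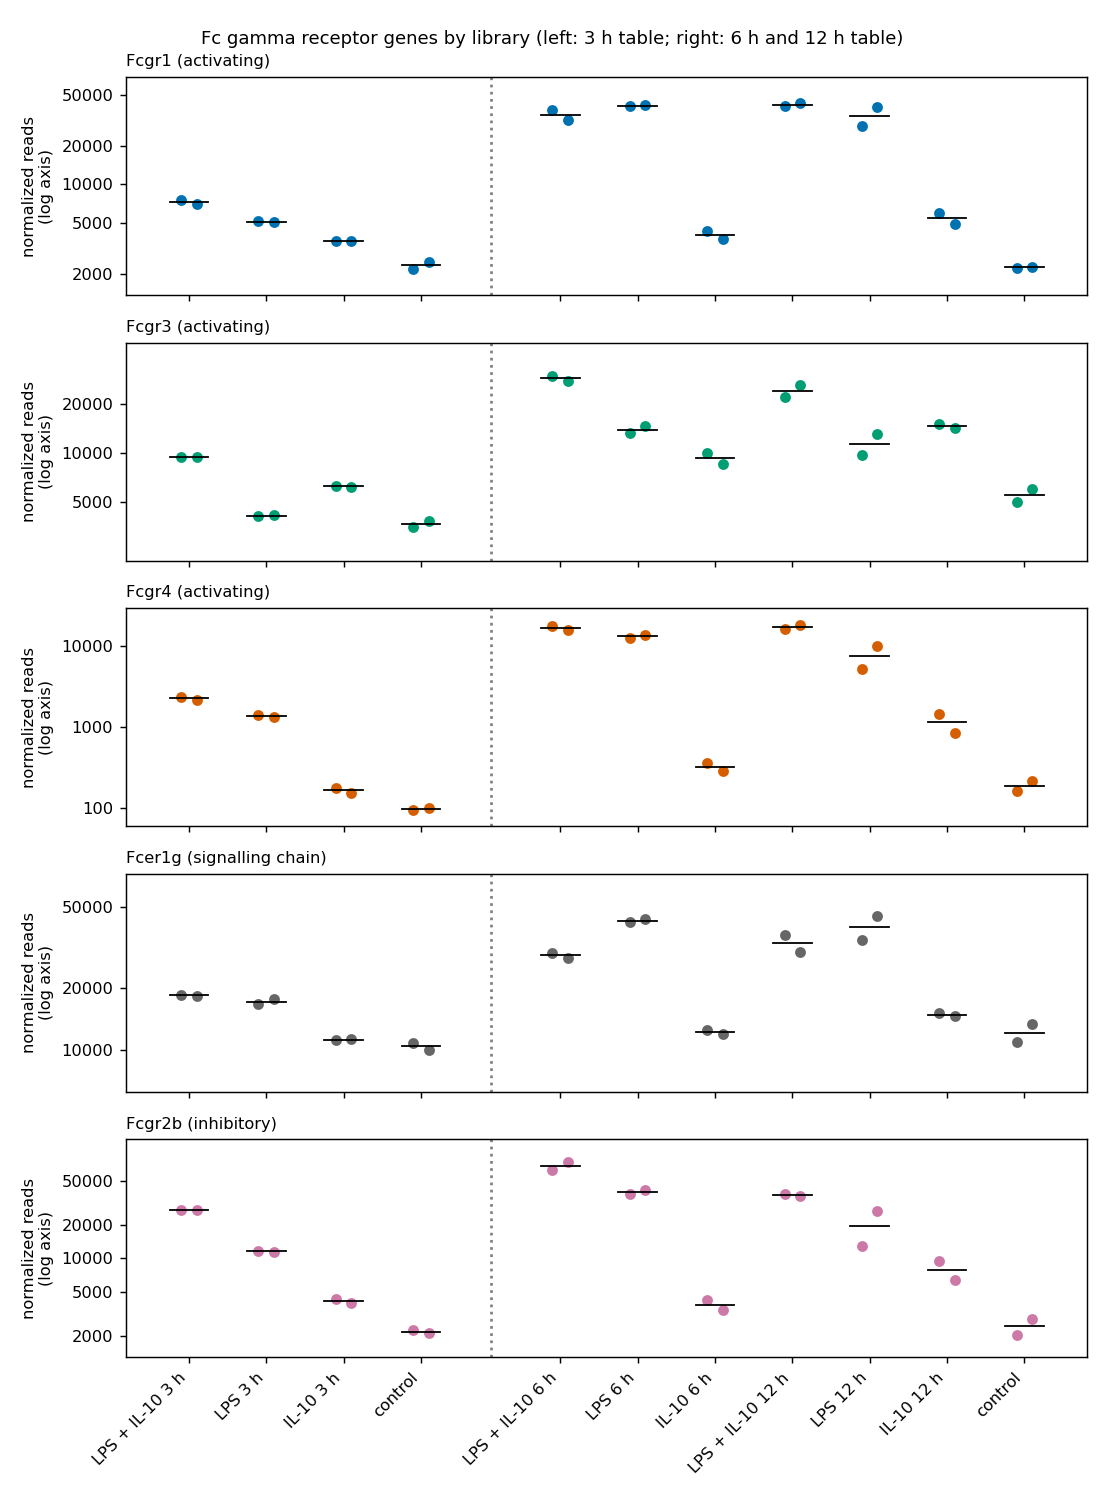
Normalized reads of the 5 genes in each of the 22 libraries on log axes, with points for libraries and black lines for group means of 2 libraries. Within the 6 h and 12 h table Fcgr1, Fcgr4 and Fcgr2b stand highest in the groups with LPS. Within each table Fcgr3 stands highest in the groups with LPS and IL-10.

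LPS raised Fcgr2b, Fcgr4, Fcgr1 and Fcer1g within 3 h and left Fcgr3 near its control level. Fcgr4, a receptor for the IgG2 subclasses, rose most in fold terms and Fcgr2b, the inhibitory receptor, came next. By 6 h all 5 genes were above the control, and Fcgr1 had joined Fcgr4 and Fcgr2b among the steep rises. These are levels in whole cultures, in which fewer cells carrying an RNA and less of that RNA per cell cannot be told apart.

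Fcgr1, the high-affinity receptor, had 5186 and 5066 normalized reads with LPS at 3 h, against 2192 and 2486 in the control. At 6 h it had 41319 and 41464 with LPS and at 12 h 28784 and 40296, against 2239 and 2271 in the second control. The groups did not overlap at any time. Its log2 change with LPS was 1.13 ± 0.09 at 3 h, 4.198 ± 0.20 at 6 h and 3.92 ± 0.20 at 12 h (± SE), with limma adjusted p of 5.5e-06, 4.8e-07 and 7.1e-07.

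Fcgr3, an activating receptor of low affinity, had 4095 and 4143 normalized reads with LPS at 3 h, against 3503 and 3834 in the control. Its libraries did not overlap, but the change of 0.17 ± 0.08 did not pass (limma adjusted p = 0.110). This value rests on the scaling and on a single control library. At equal library totals Fcgr3 was lower with LPS (-0.42 ± 0.08, adjusted p = 0.0018), as it was with quantile normalization (-0.39, 0.0064), whereas without the second control library it passed as higher (0.23, 0.015). At 6 h Fcgr3 had 13238 and 14551 normalized reads with LPS and at 12 h 9767 and 13036, against 5032 and 6019 in the second control. These rises, 1.33 ± 0.20 and 1.04 ± 0.20 (limma adjusted p = 0.00018 and 0.0016), were the smallest of the 5 and did not pass at equal library totals (0.19 and 0.30) or with quantile normalization (0.01 and 0.17).

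Fcgr4 had 1395 and 1328 normalized reads with LPS at 3 h, against 96.6 and 102 in the control. At 6 h it had 12546 and 13671 with LPS and at 12 h 5193 and 9842, against 166 and 215 in the second control. The log2 change was 3.76 ± 0.12, 6.11 ± 0.31 and 5.24 ± 0.31 at the 3 times (limma adjusted p = 8.8e-09, 5.1e-07 and 1.2e-06), a ratio of means of 13.7, 68.8 and 39.5. Fcgr4 passed under each alternative tried at each time.

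Fcer1g, the signalling chain, had 16721 and 17611 normalized reads with LPS at 3 h, against 10837 and 9984 in the control. It had 41868 and 43260 with LPS at 6 h and 34472 and 45092 at 12 h, against 10933 and 13327 in the second control. Its log2 change was 0.72 ± 0.09, 1.82 ± 0.20 and 1.71 ± 0.20 (limma adjusted p = 8e-05, 2.6e-05 and 7.8e-05). The 3 h call was lost at equal library totals (0.13 ± 0.07, adjusted p = 0.14), and quantile normalization turned the value to -0.10 at 3 h and gave 0.24 at 6 h, neither past the threshold.

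Fcgr2b had 11710.5 and 11499.7 normalized reads with LPS at 3 h, against 2235 and 2091 in the control. With LPS it had 38088 and 41792 at 6 h and 12851 and 26627 at 12 h, against 2033 and 2812 in the second control. The first 12 h LPS library held less than the second by more than the gap between the 6 h libraries, and both stayed above the control. The log2 change was 2.42 ± 0.08, 4.06 ± 0.32 and 2.95 ± 0.32 (limma adjusted p = 1.6e-08, 4.4e-06 and 5.4e-05).

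LPS therefore raised 4 of the 5 members at 3 h and all 5 at 6 h and at 12 h, and lowered none. Of all genes tested 27.6%, 28.4% and 23.7% were called higher at these times. Equal library totals moved the median gene to -0.56, -1.16 and -0.75 on the log2 scale. Relative to that shift Fcgr1, Fcgr4 and Fcgr2b remained called as higher at every time, at 3.06, 4.97 and 2.92 at 6 h. Fcgr2b was the member called between the times, lower with LPS at 12 h than at 6 h (-1.11 ± 0.32, limma adjusted p = 0.041, where 15.8% of genes were called). The call was lost at equal library totals (-0.71, 0.061) and with quantile normalization (-0.54, 0.18). That call rests on the first 12 h LPS library, without which the value was -0.58 (0.34). Without the second 12 h LPS library Fcgr4 passed too (-1.33, 0.014). The Fcgr2b call was also lost without either LPS library of 6 h (-1.18 and -1.04) and, by less (0.0503 to 0.065), without either library of LPS with IL-10 or of IL-10 alone at 6 h, or of LPS with IL-10 at 12 h.

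**Figure D2:**
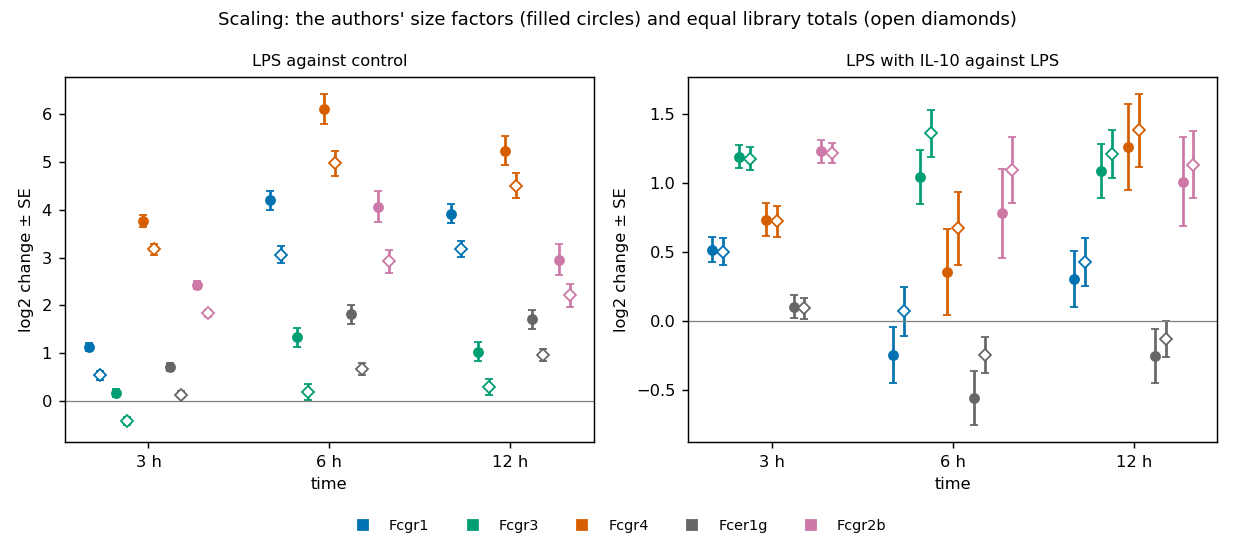
Log2 change ± SE of the 5 genes at 3 h, 6 h and 12 h with the size factors of the authors (filled circles) and at equal library totals (open diamonds), for LPS against control and for LPS with IL-10 against LPS. With LPS against control the diamonds lie below the circles and Fcgr3 at 3 h falls to -0.42, while with IL-10 added to LPS at 3 h both scalings lie together.

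IL-10 alone raised all 4 receptors at 3 h by similar amounts and left Fcer1g, the signalling chain of the activating receptors, near the control. Fcgr3 and Fcgr2b, which LPS separated, rose side by side. At 6 h no member passed, and at 12 h all 4 receptors passed, with Fcgr4 furthest.

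Fcgr2b had 4265 and 3965 normalized reads with IL-10 alone at 3 h, against 2235 and 2091 in the control, a change of 0.93 ± 0.08 (limma adjusted p = 0.00061). Fcgr3 had 6314 and 6190.1, against 3503 and 3834 (0.77 ± 0.08, 0.0017). Fcgr4 had 181 and 155, against 96.6 and 102 (0.75 ± 0.12, 0.015). Fcgr1 had 3633 and 3626, against 2192 and 2486 (0.64 ± 0.09, 0.0090). Fcer1g had 11193 and 11235, against 10837 and 9984, and did not pass (0.11 ± 0.09, 0.74). The libraries with IL-10 lay above both control libraries for each of the 5 genes, and the share of all genes that did so is not given here.

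Of the 5 members 4 were called higher, where 1.22% of all genes were. None was called when only the IL-10 and control libraries were fitted. The Fcgr1 call was lost without the first or the second IL-10 library (0.64 each, adjusted p = 0.11 and 0.085). The Fcgr4 call was lost without the first IL-10 library (0.64, 0.16), without either LPS library (0.75, 0.057 each) and without either library of LPS with IL-10 (0.75, 0.067 each).

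With IL-10 alone at 6 h, Fcgr1 had 4317 and 3734 normalized reads, against 2239 and 2271 in the second control. Fcgr3 had 9949.9 and 8607, against 5032 and 6019, Fcgr4 had 361 and 292, against 166 and 215, and Fcgr2b had 4197 and 3431, against 2033 and 2812. All 4 receptors were above both controls, while Fcer1g overlapped them at 12458 and 11979, against 10933 and 13327. The share of all genes that lay above both controls is not given here. The changes of the receptors, 0.83 ± 0.20 for Fcgr1, 0.75 ± 0.20 for Fcgr3, 0.78 ± 0.31 for Fcgr4 and 0.67 ± 0.32 for Fcgr2b, did not pass (limma adjusted p of 0.49 to 0.96). In this comparison 0.0624% of genes were called with limma. At an unadjusted p below 0.05 limma had 3 of the 5 members, and 428 of the 12817 genes. After adjustment edgeR called no member and DESeq2 called Fcgr1 (0.84, 0.030). Of 12320 genes DESeq2 called 39 higher and 4 lower.

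At 12 h of IL-10 alone Fcgr4 had 1462 and 849 normalized reads, against 166 and 215 in the second control, a change of 2.55 ± 0.31 (limma adjusted p = 0.0031). The first IL-10 library was the higher of the pair, and both were far above the controls. Fcgr2b had 9466 and 6305, against 2033 and 2812 (1.69 ± 0.32, 0.029). Fcgr3 had 15054 and 14223, against 5032 and 6019 (1.41 ± 0.20, 0.0058). Fcgr1 had 5999 and 4916, against 2239 and 2271 (1.27 ± 0.20, 0.011). Fcer1g had 15049.9 and 14557, against 10933 and 13327, and did not pass (0.29 ± 0.20, 0.60).

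The 4 rises stand where 1.01% of genes were called higher. Without the first IL-10 library at 12 h Fcgr4 remained called, and Fcgr2b (1.40, adjusted p = 0.27), Fcgr3 (1.37, 0.073) and Fcgr1 (1.12, 0.15) did not pass. The Fcgr2b call was also lost without the first control (1.46, 0.071) and without either library of LPS or of IL-10 alone at 6 h (1.69, 0.055 to 0.057). With only the groups compared, none of the 4 passed. Between the times of IL-10 alone no member was called with limma, where 0.0078% of genes were called. At an unadjusted p below 0.05 limma and edgeR each had 3 members, against 589 and 718 of the 12817 genes. Of 12320 genes DESeq2 called 60 higher, Fcgr4 among them, and 13 lower. The change of Fcgr4 from 6 h was 1.78 ± 0.31 with limma (adjusted p = 0.15) and 2.17 without the second IL-10 library of 12 h.

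**Figure D3:**
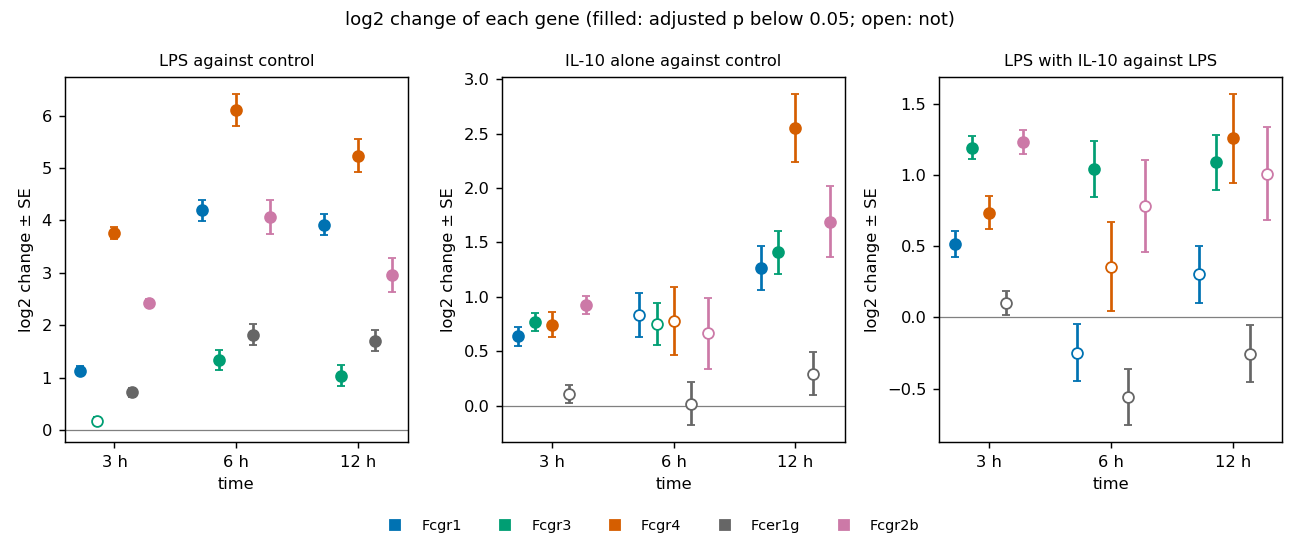
Log2 change ± SE of each gene at 3 h, 6 h and 12 h in 3 panels (LPS and IL-10 alone, each against control, and LPS with IL-10 against LPS), with filled points for an adjusted p below 0.05. Fcgr3 is at 0.17 with LPS at 3 h and between 1.04 and 1.19 with IL-10 added to LPS at all 3 times, and Fcer1g is open in every IL-10 comparison.

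IL-10 given together with LPS took Fcgr2b and Fcgr3 further up at 3 h, to 2.35 and 2.28 times the mean with LPS alone. Fcgr3 was the member that remained called at all 3 times. Fcer1g passed in none of the 3, and stood lower with IL-10 at 6 h.

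Fcgr3 had 9401 and 9395 normalized reads with LPS and IL-10 at 3 h, against 4095 and 4143 with LPS, a change of 1.19 ± 0.08 (limma adjusted p = 2.1e-05). At 6 h it had 29634 and 27609 with both, against 13238 and 14551 with LPS (1.04 ± 0.20, 0.0047). At 12 h it had 21889.5 and 26249 with both, against 9767 and 13036 with LPS (1.09 ± 0.20, 0.012). The groups did not overlap at any time. At 12 h the call was lost without the first LPS library (0.88, 0.055) and without the second library of both (0.96, 0.14).

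Fcgr2b had 27434 and 27021 normalized reads with both at 3 h, against 11710.5 and 11499.7 with LPS, a change of 1.23 ± 0.08 (limma adjusted p = 2e-05). At 6 h it had 63357 and 73983 with both, against 38088 and 41792 with LPS, and at 12 h 38026 and 36464 with both, against 12851 and 26627 with LPS. Neither later pair overlapped, yet the changes of 0.78 ± 0.32 and 1.01 ± 0.32 did not pass (adjusted p = 0.10 and 0.11). At equal library totals both passed (1.09 and 1.13, adjusted p = 0.0087 and 0.032). The 6 h value passed without either 12 h LPS library (0.78, 0.039 and 0.038) and the 12 h value without the second of them (1.53, 0.018).

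Fcgr4 had 2362 and 2173 normalized reads with both at 3 h, against 1395 and 1328 with LPS (0.73 ± 0.12, limma adjusted p = 0.0034). It had 17718 and 15825 with both at 6 h, against 12546 and 13671 with LPS, which did not pass (0.35 ± 0.31, 0.42). At 12 h it had 16119 and 18130.4 with both, against 5193 and 9842 with LPS (1.26 ± 0.31, 0.045). The 3 h call was lost without the second LPS library (0.70, 0.055) or the first library of both (0.67, 0.072). The 12 h call was lost without the first LPS library of 12 h (0.80, 0.19), without either library of both at 12 h (1.34, 0.071 and 1.17, 0.33) and without any single library of 6 h (1.26, 0.064 to 0.075), and it did not pass with the replicate block (0.065).

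Fcgr1 had 7612 and 7054 normalized reads with both at 3 h, against 5186 and 5066 with LPS (0.52 ± 0.09, limma adjusted p = 0.0061). This call was lost without the first LPS library (0.53, 0.065), the second (0.50, 0.079) or the first library of both (0.46, 0.11). At 6 h Fcgr1 had 38155 and 31848 with both, against 41319 and 41464 with LPS (-0.25 ± 0.20, 0.38), and at 12 h 40911 and 43087, against 28784 and 40296 (0.30 ± 0.20, 0.47). The level with both was thus above LPS at 3 h, below it at 6 h and above it at 12 h, and neither later difference passed. At equal library totals the 6 h value was 0.07, so its direction depends on the scaling.

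Fcer1g had 18524 and 18337 normalized reads with both at 3 h, against 16721 and 17611 with LPS (0.10 ± 0.09, limma adjusted p = 0.59). At 6 h it had 29657 and 28059.8 with both, against 41868 and 43260 with LPS, and the difference of -0.56 ± 0.20 missed the threshold (0.062). It passed without either second-table control or either 12 h LPS library (-0.56, 0.042 to 0.046) and with DESeq2 (-0.57, 0.021), and at equal library totals the value was -0.25 (0.18). At 12 h it had 36492 and 29911 with both, against 34472 and 45092 with LPS, and the groups overlapped (-0.26 ± 0.20, 0.55).

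In all 4 members were called higher with IL-10 added to LPS at 3 h, 1 at 6 h and 2 at 12 h, where 4.68%, 13.7% and 2.68% of genes were called higher. No member was called lower in these 3 comparisons.

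The interaction asked whether the IL-10 effect differed with and without LPS. At 3 h no member passed with limma, edgeR or DESeq2, where 2.79% of genes were called by limma. An unadjusted p below 0.05 was reached by 2 members with limma and with edgeR, against 1612 and 1580 of the 12338 genes. The nearest was Fcgr3, whose IL-10 effect was larger with LPS by 0.42 ± 0.12 (limma adjusted p = 0.12). It passed without the first control library (0.48, 0.0052) and without the second (0.35, 0.030), as did Fcgr2b without the second (0.35, 0.039). At 6 h Fcgr1 passed (-1.08 ± 0.29, 0.048, with 6.72% of genes called), and its IL-10 effect was -0.25 with LPS against 0.83 without. The call was lost with edgeR (-1.04, 0.068), with the replicate block (-1.08, 0.071), at equal library totals (-0.83, 0.060) and with quantile normalization (-0.90, 0.11). It was also lost without the second control (-1.09, 0.11), either LPS library of 6 h (-1.08, 0.15 and 0.11), the second library of both at 6 h (-0.95, 0.19), either IL-10 library of 6 h (-0.98, 0.16 and -1.19, 0.14), or any library of both or of IL-10 alone at 12 h (-1.08, 0.056 to 0.073). At 12 h no member passed with limma or edgeR, where limma called 0.382% of genes. With each tool 2 members had an unadjusted p below 0.05, against 1251 (limma) and 1304 (edgeR) of the 12817 genes. DESeq2 called Fcgr1 (-0.9985, 0.045), and of 12320 genes called 126 higher and 142 lower.

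Between 12 h and 6 h of LPS with IL-10, no member was called with limma or edgeR, where limma called 18.8% of genes. An unadjusted p below 0.05 was reached by 1 member with each tool, against 4655 (limma) and 4575 (edgeR) of the 12817 genes. DESeq2 called 1485 of the 12817 genes higher and 1642 lower, among the latter Fcgr2b (-0.88, adjusted p = 0.041). Its limma change was -0.88 ± 0.32 (0.079), which passed without either 12 h LPS library (-0.88, 0.030 each). The change in the effect of IL-10 on LPS-treated cells between 6 h and 12 h was called for no member by limma, edgeR or DESeq2, with none at an unadjusted p below 0.05, where limma called 1.15% of genes. Of the 12817 genes 2391 had an unadjusted p below 0.05 with limma.

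The order of the levels differed between the members. In the 3 h table Fcgr1, Fcgr4 and Fcgr2b ran from LPS with IL-10 down through LPS and IL-10 alone to the control, with no overlap between neighbours. The share of all genes with such an order is not given here. Fcer1g had the same order and no overlap either, but with IL-10 alone (11193 to 11235) close to the control (9984 to 10837). Fcgr3 ran from LPS with IL-10 through IL-10 alone and LPS to the control, so IL-10 alone stood above LPS for this member only of the 5. In the second table Fcgr3 again had both groups of LPS with IL-10 on top, at 27609 to 29634 for 6 h and 21889.5 to 26249 for 12 h. Next were IL-10 alone at 12 h (14223 to 15054) and LPS at 6 h (13238 to 14551), which overlapped, and then LPS at 12 h (9767 to 13036) and IL-10 alone at 6 h (8607 to 9949.9), which overlapped as well. Fcgr2b was highest with LPS and IL-10 at 6 h (63357 to 73983), then with LPS at 6 h (38088 to 41792) and with both at 12 h (36464 to 38026), whose libraries lay close without overlapping. Fcgr4 with both treatments overlapped between 6 h and 12 h. For Fcgr1, LPS with IL-10 at 12 h overlapped LPS at 6 h, and LPS at 12 h overlapped LPS with IL-10 at 6 h. For Fcer1g the top group was LPS at 6 h, which lay within the range of LPS at 12 h.

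Levels of different genes were set side by side as normalized reads per kilobase of coding transcript. For each gene the length was that of the transcript with the longest coding sequence. On this scale Fcer1g was the most abundant member in all 11 groups, at 26985 ± 193 with LPS and IL-10, 25133 ± 921 with LPS, 16419 ± 43.6 with IL-10 alone and 15242 ± 883 in the control at 3 h (SD, n = 2 each). Of the 4 receptors Fcgr3 was the most abundant per kilobase in the 3 h control, at 2723 ± 174, followed by Fcgr1 at 903 ± 80.3, Fcgr2b at 610 ± 28.8 and Fcgr4 at 79.2 ± 3.21. With LPS at 3 h Fcgr2b, at 3275 ± 42.1, stood above Fcgr3, at 3058 ± 25.6. With LPS at 6 h Fcgr1 led, at 15987 ± 39.6, before Fcgr2b at 11270 ± 739, Fcgr4 at 10437 ± 633 and Fcgr3 at 10315 ± 689, the last 3 within their spread of each other. With both at 6 h Fcgr3, at 21248 ± 1063, and Fcgr2b, at 19376 ± 2120, were within their spread and above Fcgr1 (13519 ± 1723) and Fcgr4 (13353 ± 1066). The place of Fcgr2b in these orders depends on the length used. Per kilobase of merged exons it stood at 2004 with LPS at 3 h, below Fcgr3 at 2373. On that scale it was last of the receptors at 6 h, at 6898 with LPS, where Fcgr4 had 10437 and Fcgr3 8004, and at 11860 with both, where Fcgr3 had 16487, Fcgr1 13519 and Fcgr4 13353.

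As a share of the 4 receptors per kilobase of coding transcript, Fcgr3 made up 32.1% and 33.0% with LPS at 3 h, against 62.6% and 63.6% in the control. Fcgr2b made up 34.9% and 34.8% with LPS, against 15.2% and 13.2%, and Fcgr4 11.7% and 11.3%, against 1.85% and 1.82%. Fcgr1 held its share, at 21.2% and 20.96% with LPS, against 20.4% and 21.4% in the control. With LPS and IL-10 at 3 h Fcgr2b reached 39.6% and 40.0%, against 34.9% and 34.8% with LPS. At 6 h Fcgr1 took 34.3% and 32.4% with LPS, against 16.3% and 13.9% in the second control, and Fcgr4 21.5% and 22.0%, against 2.49% and 2.71%. With IL-10 alone Fcgr3 made up 63.0% and 63.5% at 3 h, against 62.6% and 63.6% in the first control, and 70.2% and 70.7% at 6 h and 64.5% and 70.8% at 12 h, against 70.4% and 70.8% in the second. Fcgr4 made up 6.72% and 4.53% with IL-10 alone at 12 h, against 2.49% and 2.71% in the control.

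The ratio of the 3 activating receptors, summed per kilobase, to Fcgr2b does not depend on the scaling of a library. It was 1.86 and 1.88 with LPS at 3 h, against 5.59 and 6.59 in the control. With LPS and IL-10 it was 1.52 and 1.499, against 1.86 and 1.88 with LPS. With IL-10 alone it was 5.18 and 5.47, against 5.59 and 6.59. Per kilobase of merged exons the ratio was higher throughout, at 2.71 and 2.72 with LPS, against 7.62 and 9 in the control. The control and LPS groups stood well apart on either scale, and the IL-10 libraries lay just below the control.

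At 6 h the ratio was 3.33 and 3.20 with LPS, against 8.25 and 6.95 in the second control, and 2.84 and 2.17 with both, against 3.33 and 3.20 with LPS. With IL-10 alone it was 7.89 and 8.33, within the range of the control for the first library and above it for the second. At 12 h the ratio was 6.21 and 4.40 with LPS and 4.18 and 4.91 with both, which overlapped, and 5.49 and 7.38 with IL-10 alone, which overlapped the control. The first 12 h LPS library again lay nearer to the control. No test was run on these ratios. A two-sided exact permutation test of 2 libraries against 2 cannot go below p = 0.333.

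**Figure D4:**
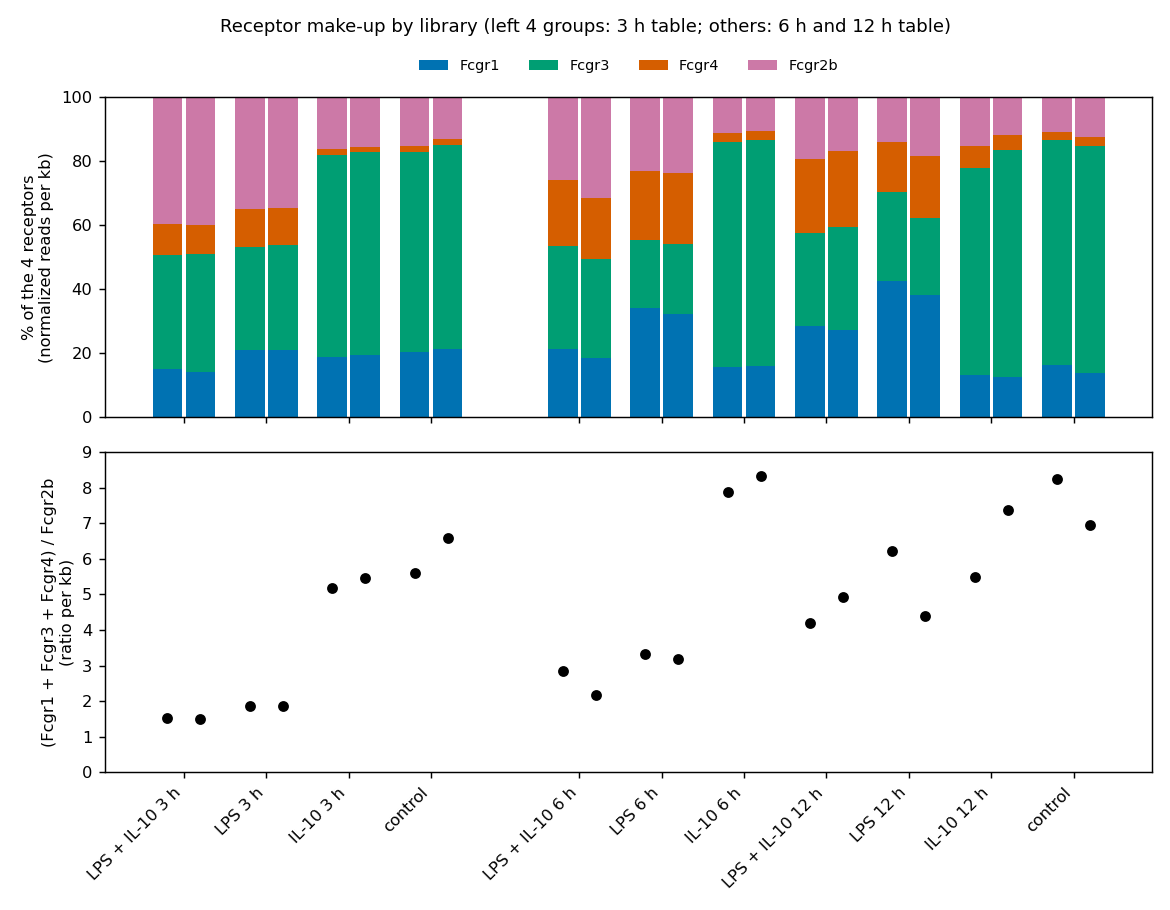
Top, the share of each receptor in the sum of the 4, as normalized reads per kilobase, for each of the 22 libraries. Bottom, the ratio of the summed activating receptors to Fcgr2b per kilobase, which is 1.499 to 1.88 at 3 h in the libraries with LPS, with or without IL-10, and 5.59 and 6.59 in their control.

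Set singly against Fcgr2b in the same library, the activating members parted. The log2 ratio of Fcgr4 to Fcgr2b was higher with LPS than in the control by 1.34 at 3 h, 2.05 at 6 h and 2.28 at 12 h. That of Fcgr3 was lower by 2.26, 2.73 and 1.92, and that of Fcer1g by 1.70, 2.24 and 1.24. The ratio of Fcgr1 was lower by 1.29 at 3 h, overlapped the control at 6 h and was higher by 0.97 at 12 h. With IL-10 added to LPS, the ratio of Fcgr1 to Fcgr2b was lower by 0.71, 1.03 and 0.71 and that of Fcer1g by 1.13, 1.34 and 1.26, without overlap. The ratio of Fcgr3 to Fcgr2b differed by -0.04, 0.26 and 0.08, with overlap at 12 h, and that of Fcgr4 by -0.50, -0.42 and 0.25, without overlap. How often ratios of other genes to Fcgr2b lacked overlap is not given.

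Over the 11 group means, each table centred on its own mean, Fcgr4 and Fcgr2b had the most alike pattern of any 2 members (Pearson r = 0.98), and Fcgr3 and Fcer1g the least (0.556). Fcgr1 went most closely with Fcer1g (0.962). These are descriptions over groups that share controls and libraries. Among 8675 genes searched in the same way, the 3 most like Fcgr4 were Clec4a1, a C-type lectin (0.993), C1ra, a complement protease (0.991), and Mxd1, a partner of Max (0.989). The nearest to Fcgr2b were Snap29, a membrane fusion protein (0.989), Ist1, of the ESCRT machinery (0.988), and Vcan, the proteoglycan versican (0.986). For Fcgr1 they were Baz2a (0.995), Dnajb11, a chaperone of the endoplasmic reticulum (0.985), and Ssu72, a phosphatase of RNA polymerase (0.983). For Fcgr3 they were AB124611 (0.987), Lamtor3, of the lysosomal Ragulator complex (0.973), and I830077J02Rik (0.941). For Fcer1g they were Pla2g16, a phospholipase (0.995), Stard3, a cholesterol transporter (0.995), and Lgals9, galectin-9 (0.994).

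The other genes of the pathway were read from lists of known function, and counts below are of genes that passed the same limma test. They are to be read against all genes tested, of which LPS raised 27.6%, 28.4% and 23.7% and lowered 25.9%, 31.3% and 23.8% at 3 h, 6 h and 12 h. IL-10 alone changed 1.64%, 0.0624% and 1.56% of all genes. IL-10 added to LPS raised 4.69%, 13.7% and 2.68% and lowered 4.92%, 10.04% and 2.23%. At equal library totals LPS raised 1591 of 12338 genes at 3 h, and 1641 and 1609 of 12817 at 6 h and 12 h. It lowered 7179, 8175 and 6417, and the list counts with LPS at equal totals are to be read against these. For IL-10 added to LPS at 6 h, equal totals gave 3237 genes higher and 631 lower. Of 15 other Fc receptor and Fc receptor-like genes 5 were measured. With LPS 2 rose and 1 fell at 3 h and at 6 h, and 1 rose and 2 fell at 12 h, with list medians of 0.33, -0.08 and -0.26. With library totals made equal, 1, 2 and 1 rose and 1, 3 and 3 fell. Trim21, the cytosolic Fc receptor, rose at 3 h to 7806 ± 305 normalized reads with LPS, against 571 ± 70.7 in the control (3.77 ± 0.11, limma adjusted p = 6.3e-09). It rose by 4.43 ± 0.43 at 6 h and 3.20 ± 0.43 at 12 h. With IL-10 alone at 12 h 3 of the 5 rose, among them Fcgrt, the neonatal Fc receptor, at 1192 ± 152 normalized reads with IL-10, against 265 ± 126 in the second control (2.25 ± 0.32, 0.0062). The Fcgrt call was lost without the first IL-10 library (2.38, 0.054).

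All 35 genes of ITAM signalling were measured. With LPS 15 rose and 9 fell at 3 h, 17 rose and 8 fell at 6 h and 14 rose and 5 fell at 12 h. At equal library totals falls outnumbered rises, as over all genes, with 8, 9 and 10 rises and 19, 20 and 12 falls. The list median was 0.15, 0.45 and 0.36, against 0.03, -0.04 and -0.02 over all genes. The adaptor Lcp2 (SLP-76) rose at 3 h to 12116 ± 176 normalized reads with LPS, against 2049 ± 23.6 in the control (2.56 ± 0.08, limma adjusted p = 7.4e-09). Syk, the kinase recruited to ITAMs, rose at 6 h to 22472 ± 814 with LPS, against 3993 ± 580 in the second control (2.50 ± 0.18, 2.4e-06). The Src family kinase Lyn rose at 6 h (2.87 ± 0.28), while the adaptor Lat2 fell (-1.90 ± 0.18). With IL-10 added to LPS the list split, 9 up and 8 down at 3 h, 4 up and 6 down at 6 h and 2 up and 1 down at 12 h. The 6 h split turned to 7 up and 3 down at equal library totals, where rises outnumbered falls over all genes too. The exchange factors Vav1 (1.47 ± 0.11 and 1.75 ± 0.22) and Sos1 (1.66 ± 0.10 and 2.38 ± 0.28) rose at 3 h and 6 h, and the adaptor Blnk fell (-0.89 ± 0.09 and -2.80 ± 0.19). Fgr, another Src family kinase, had 479 ± 67.9 normalized reads with both at 6 h, against 42.9 ± 19.1 with LPS (3.52 ± 0.36, adjusted p = 0.00018). IL-10 alone changed 2 of the 35 at 3 h, none at 6 h and 1 at 12 h.

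Of 15 inhibitory phosphatases and partners of ITIM receptors, all measured, LPS raised 6 and lowered 5 at 3 h, 5 and 5 at 6 h and 4 and 4 at 12 h. The list medians were -0.07, 0.17 and 0.53. At equal library totals 1, 2 and 0 rose and 9, 8 and 7 fell. IL-10 added to LPS raised 1, 4 and 1 and lowered 3, 5 and 0 at the 3 times, and at equal totals 4 rose and 2 fell at 6 h. Inpp5d, which encodes SHIP-1, the phosphatase that Fcgr2b recruits, fell with LPS to 1821 ± 26.3 normalized reads at 3 h, against 4442 ± 301 in the control (-1.28 ± 0.10, limma adjusted p = 3.2e-06), and to 483 ± 46.5 at 6 h, against 3908 ± 662 in the second control (-3.01 ± 0.29, 1.3e-05). At 12 h it had 1709 ± 668 with LPS, against 3908 ± 662 (-1.24 ± 0.29, 0.0051), a call lost without the second LPS library (-0.83, 0.058). With IL-10 added to LPS, the inhibitory receptor Cd300a was higher at 6 h, at 885 ± 41.0 normalized reads with both, against 106 ± 18.3 with LPS (3.06 ± 0.36, 0.00038). Inppl1, which encodes SHIP-2, was lower, at 1410.3 ± 234 with both, against 5623 ± 785 with LPS (-1.997 ± 0.26, 0.00064).

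Of 45 genes of actin remodelling, membrane traffic and the phagocyte oxidase, 43 were measured. LPS raised 23, 20 and 14 and lowered 3, 3 and 2 at the 3 times, with list medians of 0.39, 0.63 and 0.40, but at equal library totals 8, 7 and 4 rose and 19, 20 and 15 fell. The unconventional myosin Myo10 rose at 3 h to 3046 ± 248 normalized reads with LPS, against 833 ± 18.6 in the control (1.87 ± 0.09, limma adjusted p = 1.6e-07). Ncf1, an oxidase subunit, rose at 6 h to 17316 ± 118 with LPS, against 3926 ± 272 in the second control (2.14 ± 0.19, 8.2e-06), and with IL-10 added it stood at 7109 ± 387, against 17316 ± 118 with LPS (-1.29 ± 0.19, 0.0014). IL-10 added to LPS called few of the list, 2 up and 2 down at 3 h, 3 up and 5 down at 6 h and 1 down at 12 h, and at equal library totals the 6 h split was 7 up and 3 down.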

How the data were processed

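RNA from the macrophages was extracted with silica columns and made into TruSeq libraries, per the labels' protocols. TopHat2, DESeq2 and the GRCm38 build appear, without versions, in the submitters' processing notes. How reads were counted, with which annotation and whether by strand, is not given in the sources used here. Each deposited value is a signal. It is a gene's read count over the size factor that the authors applied to that library. The reads could be recovered as whole numbers, within 0.01 reads, for 100% of values. The tables were normalized separately, so tests stay within a table.

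Genes reaching 10 normalized reads in 2 or more libraries were tested with limma 3.58.1 (R 4.3.3) on log2(value + 1), all groups of a table in 1 fit, with a trended variance and Benjamini-Hochberg adjustment over all genes tested at 0.05. Fold changes on this scale understate those of low genes. All errors of changes are SE. Alternatives were edgeR 4.0.16 (quasi-likelihood) and DESeq2 1.42.0 on the recovered reads, other scalings, filters, pseudocounts and samples. Scripts for the statistics were tested on simulated data. Coordinates are those of GENCODE M21 and promoters those of RefSeq, and protein sequences were not used here. Of each list and comparison up to 4 called genes with the smallest p could be named, and the most alike genes by Pearson r. The members and gene lists were chosen with earlier results of these data known.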

Additional observations from a re-analysis of the deposited data

Results flagged for a closer look

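The IL-10 effect on Fcgr1 at 6 h passed a test of its difference with and without LPS, though not under every scaling. The interaction was -1.08 ± 0.29 on the log2 scale (limma adjusted p = 0.048), with 38155 and 31848 normalized reads with LPS and IL-10 against 41319 and 41464 with LPS, and 4317 and 3734 with IL-10 alone against 2239 and 2271 in the control. The call was lost at equal library totals (-0.83, limma adjusted p = 0.060) and with quantile normalization (-0.90, 0.11). Dependence of the call on single libraries is given with the result above, and the cause was not tested.

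The LPS level of Fcgr2b was called as different between the times, by -1.11 ± 0.32 at 12 h against 6 h (limma adjusted p = 0.041). The libraries had 12851 and 26627 normalized reads at 12 h against 38088 and 41792 at 6 h. The call was lost at equal library totals (-0.71, limma adjusted p = 0.061) and with quantile normalization (-0.54, 0.18). Without the first 12 h LPS library the value was -0.58 (0.34), and the cause of the gap between the 12 h libraries was not tested.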

How the results depend on the processing

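Over the alternatives other than leaving out a library, 858 member values kept their direction and side of the threshold, 44 calls were lost, 17 were gained and 21 values changed sign. A call was involved in 3 of these, in LPS against control at 3 h, with Fcgr3 at -0.42 at equal library totals and -0.39 with quantile normalization, and Fcer1g at -0.10 with quantile normalization. Fcrls, an Fc receptor-like gene, turned in the same comparison, to -0.26 at equal totals and -0.41 with quantile normalization. At equal totals 4 members were still called there, but Fcgr3 as lower and Fcer1g no longer. The other 18 were called under neither setting. At equal totals and with quantile normalization, Fcgr1 in LPS with IL-10 against LPS at 6 h came to 0.06757 and 0.15, in LPS at 12 h against 6 h Fcgr1 to 0.12 and 0.19, Fcgr3 to 0.11 and 0.16 and Fcer1g to 0.29 and 0.33, and the 12 h minus 6 h difference in the IL-10 effect of Fcgr3 to -0.15 and -0.12. With quantile normalization Fcgr3 in both treatments between times came to 0.04376 and the difference in the IL-10 effect of Fcgr2b to -0.08235. With the second 12 h library alone Fcer1g in LPS between times came to 0.08343, and the difference in the IL-10 effect to -0.03353 for Fcgr3, -0.03119 for Fcer1g and -0.33 for Fcgr2b. In the 3 h interaction Fcgr4 came to 0.01005 with a pseudocount of 5 and Fcer1g to 0.0046 at equal totals. Leaving out a library turned 19 values of 8 results, none of them called. These results ranged from -0.1205 to 0.09915 for Fcgr4 and -0.06462 to 0.05363 for Fcer1g in the 3 h interaction, -0.1255 to 0.1601 for Fcer1g with IL-10 alone at 6 h, -0.1208 to 0.3465 for Fcgr2b in the 6 h interaction, -0.304 to 0.08343 for Fcer1g in LPS between times, -0.05496 to 0.1147 for Fcgr4 in both between times, and -0.1645 to 0.2519 for Fcgr3 and -0.2952 to 0.7558 for Fcgr2b in the difference in the IL-10 effect.

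Counts of members called moved by over 1.5 times as follows. With only the groups compared, 0 were called for IL-10 alone at 3 h, 0 for IL-10 alone at 12 h, 0 for LPS with IL-10 against LPS at 12 h and 0 for LPS at 12 h against 6 h, and 2 for LPS with IL-10 against LPS at 6 h. Quantile normalization called 3 for LPS at 6 h, 2 for LPS with IL-10 against LPS at 6 h, 0 for the 6 h interaction, 0 for LPS between times, 1 for IL-10 alone between times and 1 for both between times. Equal totals called 2, 0 and 0 for LPS with IL-10 against LPS at 6 h, the 6 h interaction and LPS between times. Library weights called 2 for LPS with IL-10 against LPS at 6 h, 0 for the 6 h interaction, 2 for IL-10 alone at 12 h, 1 for LPS with IL-10 against LPS at 12 h, 0 for LPS between times and 3 for IL-10 alone between times. DESeq2 called 1 for IL-10 alone at 6 h, 2 for LPS with IL-10 against LPS at 6 h, 1 for the 12 h interaction, and 1 each for IL-10 alone and both between times. edgeR called 0 for the 6 h interaction and 0 for LPS between times, and TMM scaling 0 for LPS between times. With no filter on low values 0 were called for the 6 h interaction, 1 for LPS with IL-10 against LPS at 12 h and 0 for LPS between times. The second 12 h library alone gave 1 for IL-10 alone at 12 h, 0 for LPS with IL-10 against LPS at 12 h, 0 for LPS between times and 2 for LPS with IL-10 against LPS at 6 h.

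Smaller moves were to 3 for IL-10 alone at 3 h with library weights and at 12 h with no filter, to 4 for LPS at 6 h at equal totals, to 4 for LPS at 12 h at equal totals, with quantile normalization and with only the groups compared, and to 3 for LPS with IL-10 against LPS at 12 h at equal totals and with quantile normalization.

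The replicate block called 0 for the 6 h interaction, 1 for LPS with IL-10 against LPS at 12 h and 0 for LPS between times, and changed no other count of members. The numbers were not treated as pairs, since no label ties them to a culture or animal and deviations of same-numbered libraries did not all go together. They correlated from -0.0507 to 0.273 at 3 h and from -0.411 to 0.703 in the second table.

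Leaving out 1 library at a time, the members called ranged from 4 to 5 for LPS at 3 h, from 5 to 5 at 6 h and from 5 to 5 at 12 h. They ranged from 2 to 4, 0 to 0 and 1 to 4 for IL-10 alone at 3 h, 6 h and 12 h, and from 2 to 4, 1 to 3 and 0 to 3 for LPS with IL-10 against LPS. The interactions ranged from 0 to 2, 0 to 1 and 0 to 0. Between the times they ranged from 0 to 2 for LPS, 0 to 1 for IL-10 alone and 0 to 1 for both, and from 0 to 0 for the difference in the IL-10 effect. A lone library was then assumed to vary like the other groups. Ratios of a member to Fcgr2b do not change with the scaling of a library, and leaving out a library changed the sign of 4 of the 36 differences of such ratios and kept that of 32. Those 4 were Fcgr1 with LPS at 6 h (-0.09 to 0.36) and with IL-10 alone at 6 h (-0.06 to 0.39), and Fcgr3 with IL-10 alone at 6 h (-0.02 to 0.19) and with IL-10 added to LPS at 12 h (-0.24 to 0.39).

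At equal library totals LPS raised 1591 and lowered 7179 genes at 3 h, against 3400 and 3201 with the size factors. At 6 h these were 1641 and 8175 against 3644 and 4009, and at 12 h 1609 and 6417 against 3036 and 3047. LPS with IL-10 against LPS gave 3237 and 631 at 6 h against 1750 and 1287, and 280 and 147 at 12 h against 344 and 286. With 2 libraries a group, a change such as that of Fcgr2b by 0.78 did not pass, which does not show that the levels were alike.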
